A study of Rattus norvegicus with 12 samples.

Results

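The genes described here are the rat zinc finger transcription factor genes whose symbols begin with Zfp, Zbtb, Zkscan, Zscan or Zmym. They were taken from an Affymetrix rat array wherever a probe set carried a single such symbol, with Zfp36, Zfp36l1 and Zfp36l2 left out. The rule found 158 probe sets for 132 genes, of 10411 genes with 1 symbol on the array, and each gene was read at 1 probe set, chosen by its mean signal over the 12 arrays (the highest), a value that does not use the groups. The family itself was picked on earlier results of these arrays. By prefix these were 107 Zfp genes, 17 Zbtb genes, 4 Zmym genes and 4 genes of the Zkscan and Zscan type. Membership rests on the symbol alone. It therefore also brought in Zbtb8os, whose protein archease is a cofactor of tRNA ligation and no transcription factor, and Zbtb11os1, a transcript from the strand opposite Zbtb11.

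RNA came from primary ventral midbrain cultures of CD1 rat embryos at day 12. All 4 groups were grown for 6 days with 20 ng/ml basic fibroblast growth factor (bFGF) plus 50 ng/ml Sonic hedgehog (SHH) and then for 3 days without both factors. Depolarized cultures received 56 mM KCl for 2 h, a treatment that opens voltage-gated calcium channels, and were harvested 30 min or 2 h after it had ended, while control cultures spent the same time in control medium. Each group (control 30 min, depolarized 30 min, control 2 h, depolarized 2 h) had 3 arrays, numbered 1 to 3 at 30 min and 4 to 6 at 2 h. Embryos of 4 pregnant rats had been mixed into 3 lots and duplicate cultures pooled, so the spread between arrays is one between pooled cultures. The comparisons ask which of these genes differed with depolarization at each harvest.

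C2H2 zinc finger proteins read DNA with tandem finger modules, each contacting a short run of bases, and they form one of the largest transcription factor families of mammals. Many carry a KRAB domain, which recruits the corepressor Trim28 (KAP1) and with it heterochromatin enzymes, and others carry a SCAN dimerization domain. Zbtb proteins join the fingers to a BTB domain that binds corepressors and Cul3 ubiquitin ligase, while Zmym proteins have MYM-type fingers that bind protein and sit in complexes with LSD1 and histone deacetylases.

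Values are log2 expression summaries, so a difference of 1 is a 2-fold change. Across probe sets, correlations were 0.9957 to 0.9979 within a group and 0.9717 to 0.9922 between groups. The series is titled as enriched in dopaminergic neurons. Of the measured markers, 9 of 9 pan-neuronal ones and 3 of 9 dopaminergic ones (Foxa2, Ddc and Aldh1a1) lay above the array median. So did 6 of 8 astrocyte, 6 of 8 neural progenitor, 2 of 7 oligodendrocyte lineage, 1 of 6 endothelial and mural and 0 of 7 microglial markers. Th, the rate-limiting enzyme of dopamine synthesis, was at 7.77, and the dopamine transporter gene Slc6a3 at 7.80. Probe sets differ in affinity, so these levels do not compare the amounts of different transcripts. The zinc finger genes themselves averaged between 4.78 and 11.30 (median 8.46), with Zfp219 the brightest. No detection calls were used, so the dimmest of them may lie near background.

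At 30 min more of the zinc finger genes were lower than higher in depolarized cultures. Of the 132 genes, 52 (39.4%) were lower and 21 (15.9%) higher at an adjusted p under 0.05 by limma, where 13.1% of all probe sets were lower and 10.8% higher (15.4% and 10.9% of genes, each at its brightest probe set). The remaining 59 did not pass. Their median difference was -0.14, against 0.01 over all 15866 probe sets. In 63 genes all 3 depolarized arrays were below all 3 controls and in 24 above them, where 18.9% and 17.9% of all probe sets did so. Among these genes falls were also the larger changes: 7 were called and at least 2-fold lower and 0 at least 2-fold higher. Of all 15866 probe sets, 43 were called and at least 2-fold lower and 121 at least 2-fold higher. With every array centred on its own median, which moves the median of all probe sets by less than 0.1, the counts were 42 lower and 23 higher. Of all probe sets, 10.3% were then lower and 14.7% higher.

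**Figure D1:**
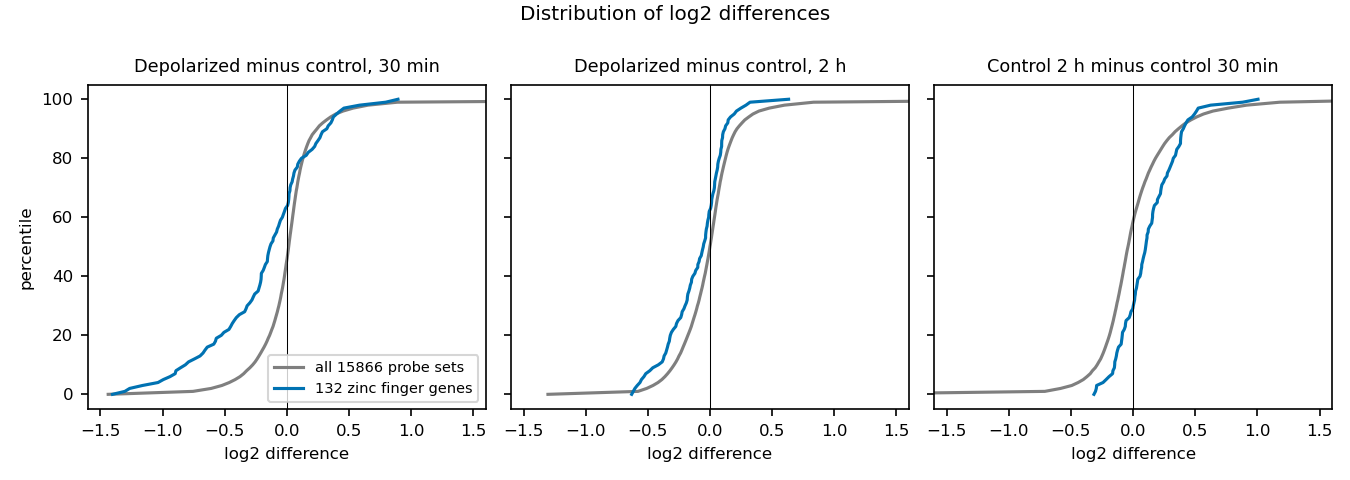
Percentile (vertical axis) of the log2 difference (horizontal axis, cut at 1.6 either side) for the 132 zinc finger genes and for all 15866 probe sets, in the comparison of depolarized with control cultures at 30 min and 2 h and of the control groups with each other. At 30 min the zinc finger curve lies to the left of the other over most of its length (medians -0.14 and 0.01). From percentile 81 to 95 it lies to the right there. Between the controls it lies to the right (medians 0.10 and -0.04), but to the left from percentile 93 upward.

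The largest fall was that of Zfp157. Its values were 8.78, 8.66 and 8.80 in controls and 7.27, 7.37 and 7.39 in depolarized cultures, 2.64-fold lower (log2 difference -1.40, SE 0.06, adjusted p = 7.37e-10 by limma). Depolarized arrays were all well under the controls, with no overlap. Zkscan1, a protein with both a SCAN and a KRAB domain, read 9.59, 9.34 and 9.32 in controls and 8.06, 8.09 and 8.26 after depolarization (-1.28, SE 0.08, adjusted p = 1.93e-08 by limma). Its groups were likewise separate.

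Promoter sequence was taken from RefSeq (GRCr8), 250 bases before to 50 bases after the annotated start, which covered 111 of the 132 genes. Shown here are the gene that fell most and 2 others that fell at both harvests and hold a motif named for the activity-regulated factors AP-1 and CREB. Capitals mark the AP-1 motif TGACTCA in Zkscan1, whose first base is at -19 from the start, and the cyclic AMP response element (CRE) TGACGTCA in Zfp426, at -47. Zfp157 has neither. Zfp157 is at chr12:21384421-21384720 (minus strand), Zkscan1 at chr12:22080115-22080414 (plus strand) and Zfp426 at chr8:27305008-27305307 (minus strand).
Zfp157: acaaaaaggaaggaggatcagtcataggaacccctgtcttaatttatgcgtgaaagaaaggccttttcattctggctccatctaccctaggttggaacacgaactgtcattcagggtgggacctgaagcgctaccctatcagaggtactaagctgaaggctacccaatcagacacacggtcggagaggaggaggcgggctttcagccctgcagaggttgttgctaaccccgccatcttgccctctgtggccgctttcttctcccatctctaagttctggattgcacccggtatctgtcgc
Zkscan1: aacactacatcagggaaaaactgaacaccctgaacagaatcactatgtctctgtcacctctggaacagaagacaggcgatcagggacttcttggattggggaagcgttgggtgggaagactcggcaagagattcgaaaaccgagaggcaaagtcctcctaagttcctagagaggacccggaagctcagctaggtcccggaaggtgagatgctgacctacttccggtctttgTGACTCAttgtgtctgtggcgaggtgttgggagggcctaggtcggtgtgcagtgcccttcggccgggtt
Zfp426: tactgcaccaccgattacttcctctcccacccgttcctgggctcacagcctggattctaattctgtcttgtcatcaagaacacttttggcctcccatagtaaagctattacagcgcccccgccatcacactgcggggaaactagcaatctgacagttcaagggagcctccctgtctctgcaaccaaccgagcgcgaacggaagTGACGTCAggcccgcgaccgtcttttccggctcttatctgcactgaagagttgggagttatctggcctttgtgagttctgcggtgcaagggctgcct

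The shares of zinc finger promoters with these motifs were near those of other promoters. Both strands were searched for TGACGTCA, TGACTCA and the EGR motif GCGTGGGCG, none of which contains another. The CRE was in 2 of 111 promoters (1.80%; Zfp426 and Zfp593), against 2.86% of the 8611 promoters of array genes and 1.83% of all 33469 promoters of that length. AP-1 was in 4 (3.60%; Zfp341, Zfp455, Zfp787 and Zkscan1), against 3.82% and 4.63%. EGR was in 1 (0.901%; Zfp646), against 1.03% and 0.544%. Of the 43 promoters whose genes were lower at 30 min, 1 held the CRE and 3 the AP-1 motif; of the 18 whose genes were higher, 0 held any of them. These matches describe letters in a window and not sites in use.

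Among the other genes of the 30 min fall, Zmym1 went from 8.11, 7.95 and 8.14 in controls to 6.71, 6.93 and 6.63 (-1.31, SE 0.08, adjusted p = 7.08e-09 by limma). Zfp688 went from 8.07, 8.21 and 8.19 to 6.88, 7.15 and 6.99 (-1.15, SE 0.09). Zfp612 went from 7.66, 7.57 and 7.58 to 6.03, 6.45 and 6.55 (-1.26, SE 0.10). In these 3 genes every depolarized array was below every control. Zfp775 fell by 1.05, and Zfp280d was 2.01-fold lower. Zfp110 encodes a protein that binds the p75 neurotrophin receptor (also called NRIF), and it fell by 0.99 (8.79, 8.70 and 8.75 against 8.03, 7.49 and 7.76). Next in size were Zfp637, which fell by 0.93, Zfp282, a repressor that binds a retroviral promoter element, which fell by 0.90, and Zfp697 and Zfp105, which fell by 0.89 each. Zbtb38, whose protein binds methylated CpG, fell by 0.70 from 5.87, 5.92 and 5.80 to 5.14, 5.22 and 5.12, all near the dim end of the array. The 23 lower genes that the naming rule did not pick ranged from -0.80 (Zfp445) to -0.19 (Zfp347), both named after their values were seen.

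The 21 rises were smaller and were spread over the Zfp, Zbtb and Zmym genes. Zfp703, which encodes a corepressor of the NET family, read 9.61, 9.41 and 9.57 in controls and 10.55, 10.38 and 10.35 in depolarized cultures, 1.86-fold higher (0.89, SE 0.09, adjusted p = 2.45e-06 by limma). Zbtb10, a repressor of Sp-factor genes, read 5.85, 5.78 and 5.82 and then 6.72, 6.63 and 6.71, 1.83-fold higher (0.87, SE 0.08). Both genes had depolarized arrays wholly above the controls. Zbtb2 rose by 0.63 and Zbtb34 by 0.56. Zfp217, a component of LSD1 and CoREST corepressor complexes, rose by 0.45 and Zmym2, found in similar complexes, by 0.37. Zfp189 rose by 0.43, Zbtb7a (also called LRF) by 0.37 and Zbtb17 (Miz-1, a partner of Myc) by 0.36. Zfp91, a ubiquitin ligase for the kinase NIK, rose by 0.41, and 4 of its 6 probe sets passed in that direction. The 6 higher genes outside the naming rule ranged from 0.18 (Zfp106) to 0.29 (Zfp592).

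**Figure D2:**
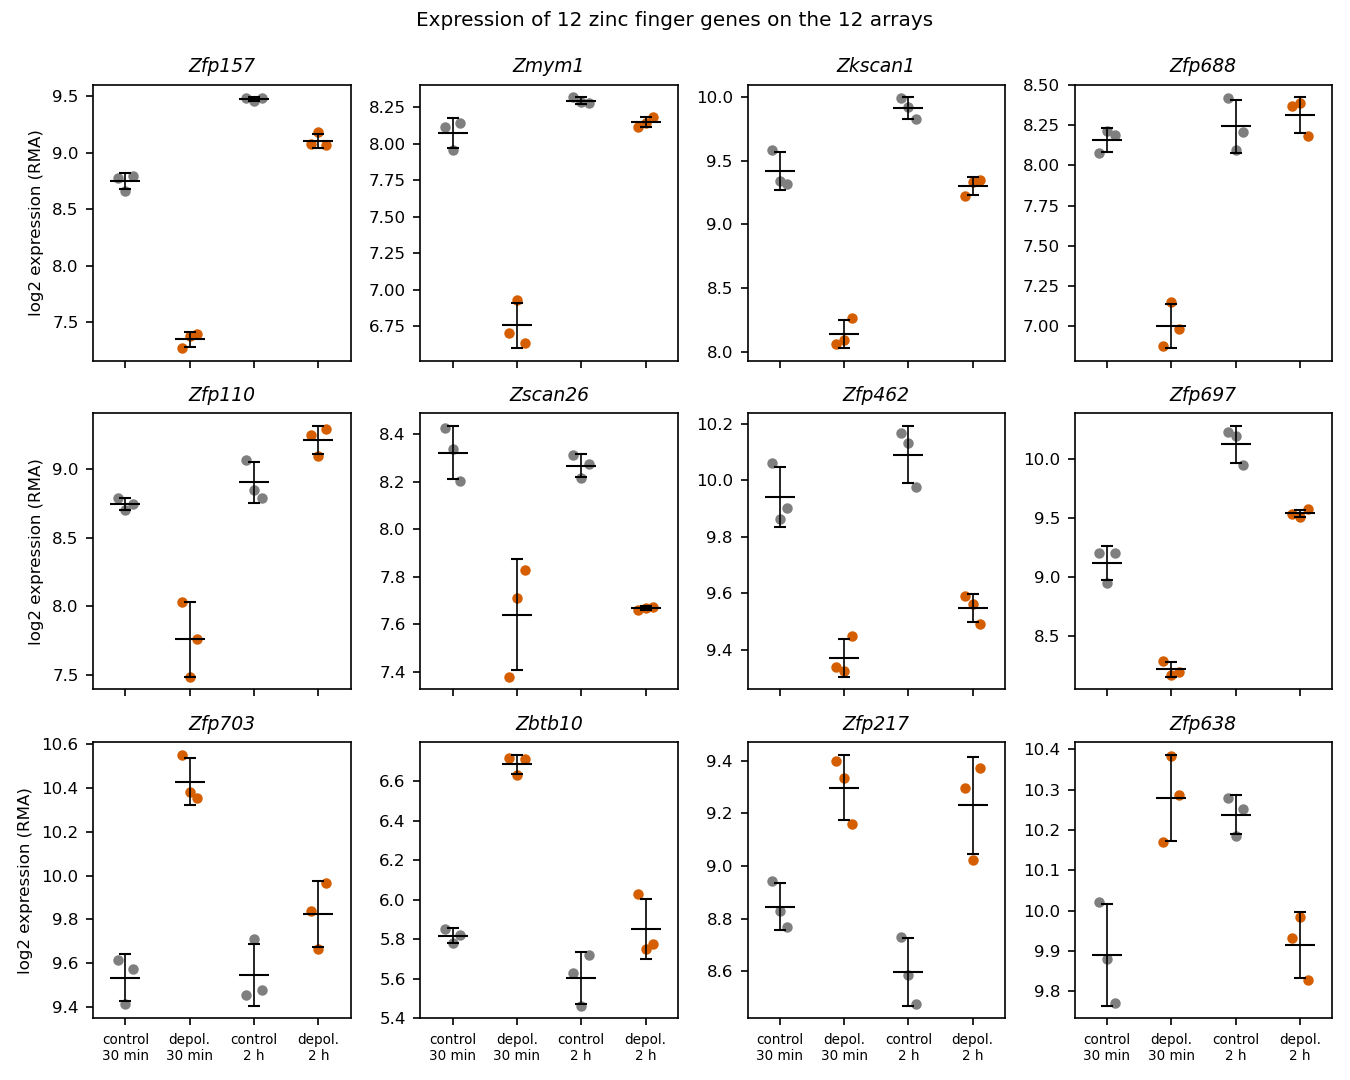
Log2 expression of 12 zinc finger genes on each array (points) with the group mean and SD (bars, n = 3), for control (grey) and depolarized (orange) cultures at both harvests; each vertical axis has its own range. Zfp157, Zmym1, Zkscan1, Zfp688, Zfp110, Zscan26, Zfp462 and Zfp697 are lower after depolarization at 30 min, and Zfp703, Zbtb10, Zfp217 and Zfp638 higher.

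By prefix, 40 of 107 Zfp genes were lower and 15 higher at 30 min. Of the 17 Zbtb genes 7 were lower and 5 higher, with a median of -0.02, against -0.14 for the Zfp genes. Of those 7, Zbtb11os1 (-0.53) and Zbtb8os (-0.25) belong by symbol only, and the Zbtb8os call was lost under median centring and without control 1 or 2 or depolarized 1 or 2. Among the 4 Zmym genes, Zmym1, Zmym3 and Zmym4 were lower and Zmym2 higher; the Zmym3 call (-0.33) was lost under median centring, under array weights and without control 1 or 2 or depolarized 1 or 3. Zkscan1 and Zscan26 were lower, and Zkscan5 (0.02) and Zscan25 (0.02) did not pass. Falls were found at all levels of expression: 17 of the 44 dimmest genes, 20 of the middle 44 and 15 of the brightest 44 were lower, with 3, 5 and 13 higher. No test of the differences between these groups was run.

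Where a gene had several probe sets, the brightest did not always speak for the rest. There were 17 genes with 26 further probe sets, and at 30 min the chosen probe set was called for 15 of these 26 pairs, with the same call in 9, no opposite call, and no call in the other probe set in 6. Zfp213 did not pass at its chosen probe set (0.06), but a dimmer one was lower (-0.81), a gene singled out after its values were seen. A second Zbtb2 probe set, at 0.14, did not pass. At 2 h calls were shared less often: the chosen probe set was called for 6 of the 26 pairs, with the same call in 1 and no call in the other probe set in 5, and in 3 more pairs only the other probe set was called.

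At 2 h the falls were fewer and smaller. Of the 132 genes, 39 (29.5%) were lower and 6 (4.55%) higher in depolarized cultures, against 15.7% and 9.51% of all probe sets (18.4% and 9.59% of genes), and 87 did not pass. The median was -0.05, against -0.0007 over all probe sets. With median centring it was -0.01, against 0.04 over all probe sets. The counts were then 32 lower and 8 higher, against 12% and 12.7% of all probe sets. No gene was 2-fold lower or higher (range -0.63 to 0.63). Of all 15866 probe sets, 3 were called and at least 2-fold lower and 103 at least 2-fold higher. Depolarized arrays were all below the controls in 47 genes and all above them in 15, against 22.1% and 15.4% of all probe sets. The count of 6 higher genes was 3 without control 4, 5 or 6 and 2 without depolarized 4. Of the 17 Zbtb genes 1 was lower at 2 h, Zbtb8os (-0.46), which belongs by symbol only, and 1 higher, Zbtb10.

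Zfp775 was the gene with the largest fall at 2 h, with 7.31, 7.30 and 6.85 in controls and 6.38, 6.62 and 6.57 in depolarized cultures (-0.63, SE 0.11, adjusted p = 0.000592 by limma). Zkscan1 read 10.00, 9.92 and 9.83 against 9.22, 9.33 and 9.35 (-0.61, SE 0.08). Zscan26 read 8.31, 8.21 and 8.27 against 7.66, 7.67 and 7.67 (-0.60, SE 0.09). In each, all depolarized arrays were below all controls. Zfp280d fell by 0.62, Zfp697 by 0.58, Zfp827 and Zfp426 by 0.56 each, and Zfp462, a chromatin-associated protein needed for neural development, by 0.54. The 30 min falls of Zscan26 (-0.68), Zfp426 (-0.64) and Zfp462 (-0.57) were close to these, and for none of these 3 was a difference between the responses detected (0.08, SE 0.13; 0.08, SE 0.13; 0.03, SE 0.10).

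Zfp217 alone among the 132 rose by more at 2 h than at 30 min while passing at both. It read 8.73, 8.59 and 8.48 in 2 h controls and 9.30, 9.02 and 9.37 in depolarized cultures (0.63, SE 0.10, adjusted p = 0.000177 by limma), but the difference from its 30 min response did not pass (0.18, SE 0.13). Zfp536, a repressor of neuronal differentiation genes, rose only at 2 h by these calls, from 8.73, 8.60 and 8.57 to 8.96, 8.95 and 8.97 (0.33), after -0.11 at 30 min. The other 2 h rises were small. Zfp703 was at 0.28, Zbtb10 at 0.25, Zfp655 at 0.18 and Zfp110 at 0.31, and each lost its call without several single arrays: Zfp703 without control 4 or 6 or depolarized 4 or 6, Zbtb10 without control 4 or 5 or depolarized 4, Zfp655 without control 2, 4, 5 or 6 or depolarized 2, 4, 5 or 6, and Zfp110 without control 1, 2, 3, 5 or 6 or depolarized 3, 4 or 6.

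**Figure D3:**
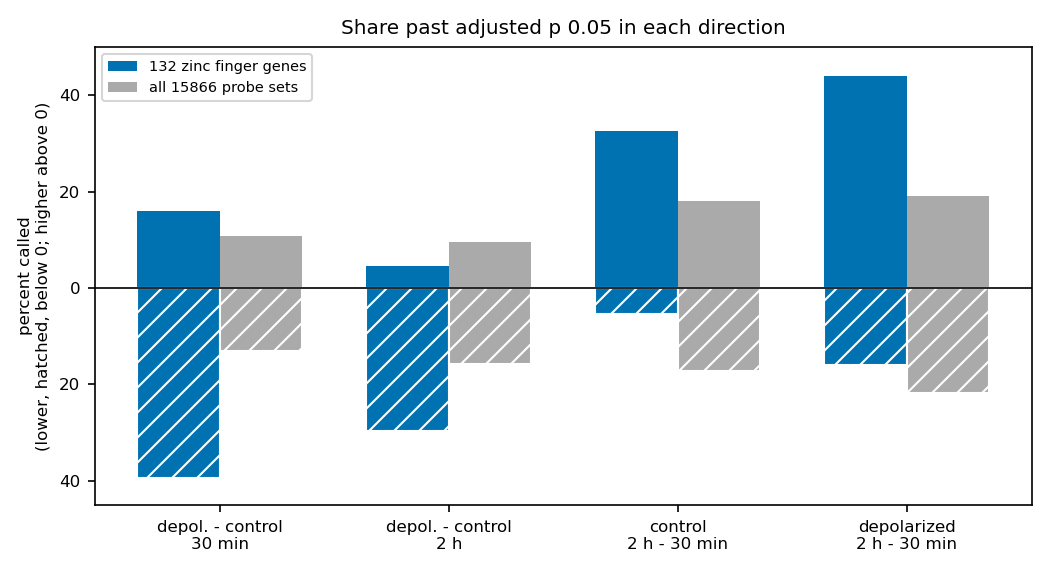
Percent of the 132 zinc finger genes (blue) and of all 15866 probe sets (grey) past an adjusted p of 0.05, higher drawn above 0 and lower (hatched) below, in 4 comparisons. At 30 min 39.4% of the zinc finger genes and 13.1% of probe sets were lower; at 2 h these were 29.5% and 15.7%.

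The 30 min and 2 h responses have no arrays in common. Their calls do share the estimate of each probe set's spread, so they are not fully independent. Lower at both were 26 genes, which is 50% of the 52 lower at 30 min and 66.7% of the 39 lower at 2 h. At 2 h 15.7% of all probe sets were lower. The overlap over all probe sets was not counted, so these shares cannot be called particular to zinc finger genes. In 21 of these 26 the fall was larger at 30 min; their median was -0.66 at 30 min and -0.41 at 2 h. A further 25 were lower at 30 min and did not pass at 2 h, where they lay between -0.20 and 0.15. Lower only at 2 h were 11 genes, from -0.42 to -0.21, among them Zfp423, a partner of EBF and SMAD factors (0.01 at 30 min, -0.28 at 2 h), and Zfp644, which binds the histone methyltransferases G9a and GLP (-0.06 and -0.34). A dimmer Zfp423 probe set gave 0.01 at 2 h, and the call was lost with both averaged. Higher at both were Zfp703, Zbtb10, Zfp217 and Zfp655, and 15 genes were higher at 30 min alone. Calls turned from lower to higher in Zfp110 and from higher to lower in Zfp638 and Zfp46, while 47 genes passed at neither harvest.

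Over the 52 genes lower at 30 min, the median distance from the mean of the matching controls was -0.53, -0.60 and -0.53 on the 3 depolarized arrays at 30 min, the contrast that chose them. On the 3 depolarized arrays at 2 h, which entered that choice only through the shared estimate of the spread, it was -0.21, -0.21 and -0.18. In 22 of the 52 the depolarized arrays at 2 h overlapped their controls.

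**Figure D4:**
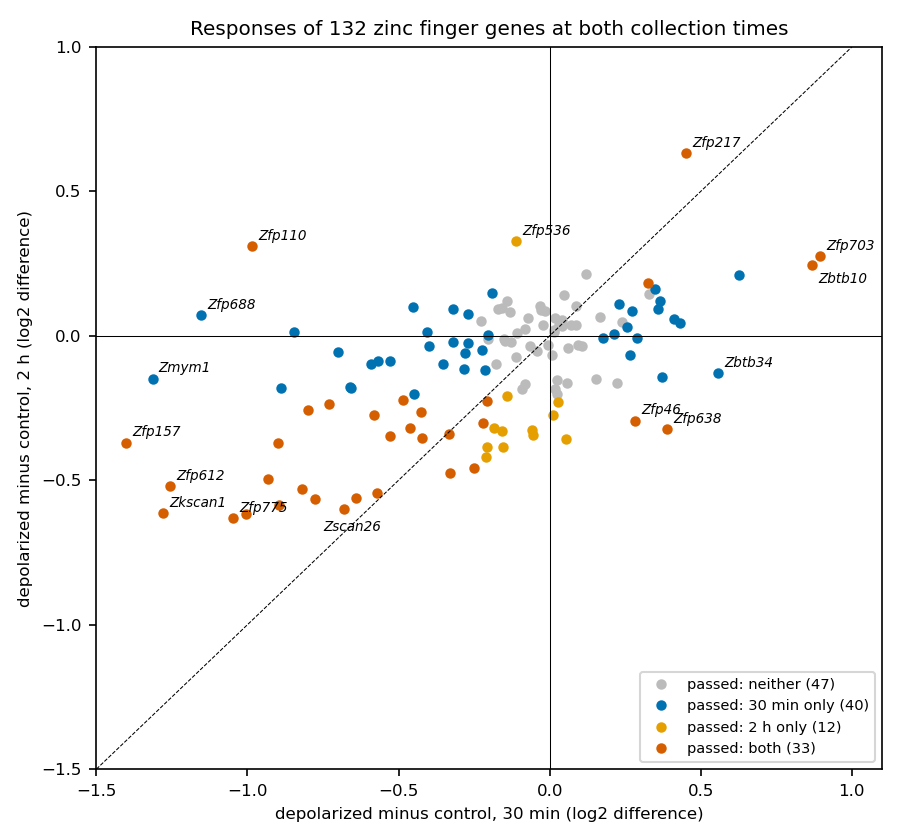
Log2 difference between depolarized and control cultures at 2 h (vertical axis) against that at 30 min (horizontal axis), 1 point for each of the 132 zinc finger genes, coloured by where the gene passed; the dashed line marks equal differences. Both harvests were passed by 33 genes, 30 min only by 40, 2 h only by 12 and neither by 47.

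The difference between the responses (2 h minus 30 min) uses the same arrays as both responses and is set beside them. It was positive and passed in 23 genes (17.4%, against 6.16% of all probe sets and 6.9% of genes) and negative in 12 (9.09%, against 6.79% and 7.18%). The negative count was 7 without depolarized 3 at 30 min. Of the 52 genes lower at 30 min, 22 were among the positive ones. Zfp110 had the largest: depolarized arrays at 2 h read 9.25, 9.10 and 9.29 against 9.07, 8.85 and 8.79 in controls, after the fall at 30 min (difference of responses 1.30, SE 0.15, adjusted p = 4.65e-05 by limma). Zfp688 followed, with 8.37, 8.38 and 8.18 against 8.42, 8.10 and 8.20 at 2 h, where the groups overlapped (1.23, SE 0.13). Zmym1 read 8.12, 8.14 and 8.18 against 8.32, 8.29 and 8.28 at 2 h, a difference of -0.15 that did not pass (1.17, SE 0.11, for the difference of responses). Zfp157 was still lower at 2 h, with 9.07, 9.18 and 9.07 against 9.49, 9.46 and 9.49 (-0.37), yet its responses differed by 1.03 (SE 0.09). Zfp518b went from -0.85 to 0.01.

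Zfp638, whose protein silences unintegrated retroviral DNA and takes part in splicing, moved the other way. It read 10.02, 9.88 and 9.77 in controls and 10.17, 10.38 and 10.29 in depolarized cultures at 30 min (0.39), then 10.28, 10.18 and 10.25 against 9.93, 9.99 and 9.83 at 2 h (-0.32). The arrays were apart at both harvests and in opposite order, and the difference of responses was -0.71 (SE 0.11, adjusted p = 0.000368 by limma). Zbtb34 went from 0.56 to -0.13 and Zfp46 from 0.28 to -0.29, but the Zfp46 calls were lost without control 2 at 30 min and without control 5 or depolarized 4 at 2 h.

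Control cultures also differed between the harvests, which bears on every value at 2 h because these controls are shared with the comparisons above. The harvests carry different replicate numbers, and the labels do not say whether they share a preparation. Time and preparation therefore cannot be told apart in any difference between the harvests, including the difference of responses. Of the 132 genes, 43 (32.6%) were higher and 7 (5.30%) lower in controls at 2 h than at 30 min, against 18.1% and 17.2% of all probe sets (19.1% and 17.5% of genes), with a median of 0.10 against -0.04. Zfp697 read 9.20, 8.95 and 9.20 and then 10.23, 10.19 and 9.95, 2.01-fold higher (SE 0.08 on the log2 scale, adjusted p = 1.95e-07 by limma). Zfp950l1 read 5.40, 5.37 and 5.30 and then 6.36, 6.17 and 6.38 (0.95, SE 0.09), the same direction with no overlap. Zfp157 was 0.73 higher. All 4 Zmym genes were higher, by 0.21 to 0.56, although the call was lost for Zmym1 without control 2, 4, 5 or 6 and for Zmym2 without control 2, 3, 4 or 6. Lower were Zbtb8os (-0.31), Zfp524 and Zfp386 (-0.30 each), Zfp219 and Zbtb47 (-0.29 each) and Zfp277 (-0.22), the last losing its call without control 1, 3, 4, 5 or 6. Of the 52 genes lower at 30 min, 18 were higher in the later controls. Between the depolarized groups 58 genes (43.9%) were higher at 2 h and 21 (15.9%) lower, against 19.2% and 21.8% of all probe sets (20.7% and 22.9% of genes); Zfp157 was 3.40-fold higher there.

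Cell type markers differed between the harvests as well, and for them too time and preparation cannot be told apart. All 9 measured pan-neuronal markers were higher in the later controls, with a mean level of 10.35 to 10.58 at 30 min and 11.47 to 11.51 at 2 h, and so were 6 of 9 dopaminergic markers, among them Aldh1a1 (2.29) and Ddc (1.47). Lower were 5 of 7 oligodendrocyte lineage, 5 of 8 neural progenitor and 3 of 8 astrocyte markers, with 1 progenitor marker (Pax6, 1.03) and 1 astrocyte marker higher. Of 6 endothelial and mural markers 1 was higher and 1 lower, and 0 of 7 microglial markers passed. In such bulk samples, fewer cells of a type and less RNA per cell cannot be told apart. With depolarization at 30 min, 1 of 9 pan-neuronal, 2 of 9 dopaminergic, 1 of 8 progenitor and 1 of 7 microglial markers were higher, 1 of 7 oligodendrocyte lineage and 1 of 6 endothelial and mural markers lower, and 0 of 8 astrocyte markers passed. At 2 h, 2 pan-neuronal markers were higher and 0 lower, 3 dopaminergic markers higher and 1 lower, 1 progenitor marker (Sox2, 0.31) higher and 3 lower, and 1 endothelial and mural marker (Flt1, 0.23) higher and 1 lower. There 1 oligodendrocyte lineage marker was lower, and 0 astrocyte and 0 microglial markers passed. The log2 signal of the 3' probe set of beta-actin minus that of its 5' probe set is a mark of RNA integrity. This difference was 0.31 to 0.45 in controls and 0.33 to 0.43 in depolarized cultures at 30 min. At 2 h it was 0.51 to 0.59 and 0.41 to 0.46. For GAPDH the ranges overlapped, at 0.45 to 0.54 and 0.49 to 0.51 at 30 min and at 0.48 to 0.65 and 0.46 to 0.58 at 2 h. The part of these in the zinc finger differences was not tested.

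Several well-studied members did not pass with depolarization at the probe set chosen. Zfp148, a factor that binds GC-rich promoters, read 9.89, 9.94 and 9.91 in 30 min controls and 9.77, 9.98 and 10.02 in depolarized cultures (0.01, SE 0.07) and gave 0.01 (SE 0.07) at 2 h. Its groups overlapped at both harvests. Zbtb18 (RP58), needed for cortical neuron development, gave 0.12 and 0.21, each with SE 0.11, at its chosen probe set. Its 2 h difference passed without depolarized 6 (0.33) and with both probe sets averaged (0.25), and the dimmer probe set was itself higher at 2 h (0.29, adjusted p = 0.0318 by limma). Zbtb48, which binds telomeres, gave 0.03 and 0.04, and the dim genes Zfp667 and Zfp382 lay between -0.08 and 0.04 at both.

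Genes for the partners of these proteins were counted in the same way. Of 34 listed cofactors of KRAB proteins 23 were measured, and at 30 min 7 (30.4%) were higher and 4 (17.4%) lower, against 10.8% and 13.1% of all probe sets (median 0.09, against 0.01). Trim28, the KRAB corepressor itself, was 0.24 higher and the methyl-CpG binding gene Mbd2 0.45 higher, while the chromatin remodeller gene Smarcad1 was at -0.61 and Morc3 at -0.66. Of 29 BTB and LSD1 complex partners 20 were measured, with 6 (30%) higher and 1 (5%) lower (median 0.06), among them Cul3 (0.73), the LSD1 gene Kdm1a (0.41) and Ncor1 (0.39); the 1 lower gene, Rcor2 (-0.33), lost its call without control 3 or depolarized 2. Of 110 other zinc finger factors outside these symbols 48 were measured, with 5 (10.4%) higher and 12 (25%) lower (median 0.03). Rreb1 was at -1.28, Zik1 at -1.18 and Patz1 at -0.91, and Hic2 at 0.75. The KRAB count of 7 was 4 without depolarized 3, and the count of 5 was 3 without control 1, 2 or 3 or depolarized 3 at 30 min or depolarized 4 or 6 at 2 h. At 2 h, where 9.51% of all probe sets were higher and 15.7% lower, the KRAB cofactors had 3 higher (13.0%) and 4 lower (17.4%). The BTB partners had 3 higher (15%) and 5 lower (25%), and the other factors 4 higher (8.33%) and 12 lower (25%). There the 3 higher cofactors were 0 without control 6 and 1 without depolarized 4, and the 5 lower BTB partners were 2 without control 5.

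Some of the genes lie close together in the rat genome. By gene order in RefSeq (GRCr8), 130 of the 132 could be placed. Of these, 38 stood in 17 runs, with neighbours at most 5 places apart in the order of protein-coding genes. Members of a run did not all move alike. In the run of Zfp282, Zfp956 and Zfp746 all 3 were lower at 30 min (-0.90, -0.46 and -0.40), as were Zfp445 and Zfp105 (-0.80 and -0.89) and Zmym4 and Zmym1 (-0.33 and -1.31). Zfp64 and Zfp217 were called in opposite directions (-0.66 and 0.45). Zbtb10 (0.87) stood in a run with Zfp704 (0.03), and Zfp688 (-1.15) in a run with Zfp764l1 (-0.16) and Zfp689 (-0.21), of which neither passed.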

How the data were processed

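Expression was measured on 12 single-colour Affymetrix rat arrays, 3 in each of 4 groups. The authors deposited log2 values. The submitters' processing notes name RMA without a version, and the scale was read from the values (4.41 to 14.58). The sources used here do not give the set of arrays that RMA normalized jointly. Of 15923 probe sets, 57 array controls were left out. Symbols came from the platform annotation, and 131 of the 132 genes had their gene ID in the current RefSeq table, with 0 changed symbols.

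With limma 3.58.1 in R 4.3.3, 1 mean per group was estimated over 15866 probe sets (8 residual degrees of freedom), with two-sided p-values adjusted by Benjamini-Hochberg over all of them and a threshold of 0.05. No depth applies to arrays: their number limits the precision. The labels do not say whether both harvests share a preparation.

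The members and lists were chosen with earlier results of these data known. Genes were named by rule, from those called and with arrays apart: 12 largest falls and 8 largest rises at 30 min, 8 each way at 2 h, 6 each way for the difference of responses and between controls, 4 each way between depolarized groups, the 6 brightest, and a set of 38 symbols; 59 were named. Not analysed here, with no probe set under these symbols alone, were Zbtb16, Zbtb20, Zbtb33, Zfp161, Zfp238, Zfp281, Zfp521, Zkscan3 and Zscan21. Alternatives were quantile normalization, median centring, no probe sets among the dimmest 25% or 50%, a fit of only the arrays compared, a trended and robust prior, array weights, averaging the probe sets of a gene, the replicate number as a block, an adjusted p under 0.01 and each array left out. A loess correction on mean level was added after the results were seen. The scripts were tested on simulated data.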

Additional observations from a re-analysis of the deposited data

Results flagged for a closer look

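The responses at 30 min and 2 h differed, by the interaction test in limma, in 26 of the genes the rule names. These differences (2 h response minus 30 min response, log2) share arrays with both responses. Positive differences, in genes lower at 30 min, were 1.30 for Zfp110, 1.23 for Zfp688, 1.17 for Zmym1, 1.03 for Zfp157 and 0.86 for Zfp518b. Zfp612 followed with 0.73, Zfp105 with 0.71, Zkscan1 with 0.66, Zbtb38 with 0.64 and Zfp282 with 0.53. Zfp111 was at 0.49, Zfp386 at 0.47, Zfp637 at 0.44 and Zfp524 at 0.41. Zfp536, not called at 30 min, was at 0.44.

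Negative differences, in genes higher at 30 min, were -0.71 for Zfp638, -0.69 for Zbtb34, -0.62 for Zbtb10, -0.62 for Zfp703 and -0.58 for Zfp46. Zmym2 was at -0.52, Zbtb2 at -0.42, Zfp189 at -0.39, Zfp91 at -0.35 and Zfp354a at -0.33. Zfp644, lower at 2 h only, was at -0.29. Some of these calls were lost without a single array: Zfp536 without control 3, 5 or 6 or depolarized 2 or 3, and Zbtb2 without control 2 or 4 or depolarized 3. Zfp91 lost its call without control 1, 3, 4 or 5 or depolarized 2, 3, 4, 5 or 6, and Zfp354a without control 1, 2, 4 or 5 or depolarized 2, 3 or 5. Zfp644 kept its call only without control 6 or depolarized 2.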

How the results depend on the processing

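The counts of zinc finger genes lower with depolarization stayed within 44 to 52 at 30 min and 29 to 39 at 2 h when any single array was left out, and the direction of every named call held under all alternatives run. Of 173 named calls, 17 were lost under at least 1 alternative other than a left-out array or the stricter threshold, and 29 without at least 1 array. Leaving out the dimmest 50% of probe sets kept 72 of the genes, with 28 lower at 30 min, 25 lower at 2 h, 12 with a positive difference of responses, 29 higher between the depolarized groups, and a median difference of responses of -0.037 in place of 0.06; in the list of other factors it left 1 higher at each harvest. With an adjusted p under 0.01, 2 genes were higher at 2 h and 7 had a negative difference of responses, and the lists had 3 KRAB cofactors higher at 30 min and 0 at 2 h, 0 BTB partners lower at 30 min and 3 at 2 h, and 3 other factors higher at 30 min. Between controls the 7 lower genes were 14 after quantile normalization, 12 with array weights and 12 with the mean of probe sets. BTB partners at 2 h were 5 higher after quantile normalization and 5 after the loess correction, and 3 lower with the mean of probe sets and 3 after loess; at 30 min 2 were lower with array weights. Without single arrays, the ranges were 2 to 6 genes higher at 2 h, 7 to 14 with a negative difference of responses, 2 to 5 BTB partners lower at 2 h and 0 to 1 at 30 min, 0 to 3 KRAB cofactors higher at 2 h and 4 to 9 at 30 min, and 3 to 5 other factors higher at 30 min. The filter on dim probe sets tested fewer genes. The shares of all probe sets called under it were not counted, so its counts stand without a background. The cause of the other changes was not tested.

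Whether the replicate numbers pair the samples could not be decided. Same-numbered samples correlated at -0.32 to 0.24, and 2 of 6 matched their own number best. With so few arrays in each group, these correlations can neither show nor exclude pairing. With the number as a replicate block, 48 of the 132 genes were lower and 19 higher at 30 min, against 12.1% and 10.1% of all probe sets. At 2 h 36 were lower and 5 higher, against 14% and 8.77%. The difference of responses was positive in 24 and negative in 8, against 5.62% and 5.83%. The number of arrays and the lack of detection calls limit what can be said of the dimmest genes.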
